A study of Mus musculus with 2 samples.

Results

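The genes described here encode enzymes of hepatic triglyceride synthesis, the lipid transfer protein of very low density lipoprotein (VLDL) assembly and a lysophospholipid transporter. They were taken by name, with earlier results of these data known. Of the 10 genes named, 8 were listed among the 8551 genes of the expression table. Listed were Gpam, Agpat2, Agpat3, Lpin2, Dgat1, Dgat2, Mttp and Mfsd2a, while Lpin1 and Mogat1 were not analysed here. Liver was taken from 9-week-old male mice about 3 h into the light period. The normal group was wild type on a C57BL/6 background. The diabetic group carried the db/db genotype, also labelled C57BL/6. In this genotype the signalling form of the leptin receptor is lost, so that the mice overeat and become obese and diabetic. All mice had free access to chow. They came from a pair of suppliers, and the sources do not tie supplier to genotype. There was 1 library per group and the sources do not state whether the RNA of several mice was pooled, so no difference below has a replicate check.

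Hepatocytes make triglyceride by adding fatty acids stepwise to glycerol 3-phosphate. GPAT enzymes add the first acyl chain and AGPAT enzymes the second, lipins then remove the phosphate to give diacylglycerol, and the DGAT enzymes add the last chain. The triglyceride is stored in lipid droplets or loaded onto apolipoprotein B in the endoplasmic reticulum by the microsomal triglyceride transfer protein, and leaves the cell as VLDL.

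The values are counts of short tags cut from cDNA next to a DpnII site, the letters GATC. The tag expected for each listed gene is shown because it is the piece of the mRNA that reads from the last site would stand for. It was read from GENCODE M21 transcripts (GRCm38) that carry a RefSeq mRNA, as the last GATC of the transcript and, as an assumed tag length, the 16 bases after it, 5′ to 3′, with the DpnII site in capitals. For 3 genes with annotated transcripts of different 3′ ends, both tags are given.
Gpam, transcript of 3832 bases: GATCacgtgacaatgcagtc
Gpam, transcript of 6172 bases: GATCtagaagaaaactgcac
Agpat2: GATCcaggaccctatgtaac
Agpat3: GATCtggcccttttgtcctt
Lpin2, transcript of 4167 bases: GATCtgcagagccttgccca
Lpin2, transcript of 5640 bases: GATCagtactgcagttcctg
Dgat1: GATCtggcttatcttcttct
Dgat2: GATCcttttctaccgagttc
Mttp, transcript of 3963 bases: GATCattgcttaaaaaatga
Mttp, transcript of 3072 bases: GATCcagggtggtctagcta
Mfsd2a: GATCtctttgcccttgcact

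Of these 11 tags, 9 lay in a 3′ untranslated region and 2 in coding sequence, the latter being the tag of Dgat1 and that of the shorter Mttp transcript. Each of the 11 tags stood next to a GATC of 1 gene only among all annotated transcripts, so Dgat1 and Dgat2, or Agpat2 and Agpat3, do not share their expected tag. The transcripts held 4 to 18 GATC sites, and the cDNA was primed with random hexamers, so reads need not come from the last site; the sources used here do not say which site each came from. No annotated gene overlapped Dgat1, Dgat2 or Mfsd2a. On the opposite strand, genes overlapped Gpam, Agpat2, Agpat3 and Mttp, among them the coding genes Egfl7 at Agpat2 and Trmt10a at Mttp, and a long noncoding RNA overlapped Lpin2 on the same strand. Whether strand was used in counting is not stated, so reads of such partners cannot be told apart from those of the gene.

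The library of the normal group held 10278531 clean tags and that of the diabetic group 13508232. Values are in TPM as deposited, which scale the reads of a gene to the clean tags of its library, so that 1 read is worth 0.0973 TPM in the normal and 0.0740 TPM in the diabetic library. Ratios are diabetic over normal. Their 95% Clopper-Pearson intervals, like all intervals below, cover counting error only. Each gene's reads were compared by an exact binomial test, two-sided, and adjusted over all 8551 genes to a false discovery rate (FDR). This test compares the 2 libraries and not the conditions. A gene is called here when it differed at least 1.5-fold with an FDR under 0.001. Over all listed genes the median log2 ratio was 0.25, and 61.8% of genes had the higher value in the diabetic library. Of the called genes 73.6% were higher, and under 4 other scalings between the libraries this share was 47.4% to 52.6%. Hepatocyte genes were present in both libraries. Of 8 hepatocyte markers 7 were listed, and they summed to 16234 TPM in the normal and 18019 TPM in the diabetic library. Alb, which encodes albumin, was at 6801 and 6912 TPM, and Cps1 at 130.27 and 316.70 TPM. Among the 7 markers 3 were called higher and 0 lower, beside 22.9% and 8.19% of all listed genes.

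All 8 listed genes had the higher value in the diabetic library, and 3 of the 8 were called: Agpat3, Dgat1 and Mfsd2a. The table leaves out genes with a mean under 1 TPM. Lpin2, at 0.88 TPM in the normal library, could thus be listed only with a higher diabetic value. Called higher were 22.9% of all listed genes. Called lower were 8.19% of them and 0 of the 8, which among so few genes is near that share. By the fold alone 7 of the 8 genes were at least 1.5-fold higher, against 34.4% of all listed genes higher and 15.3% lower. Under each of the 4 other scalings 5 of the 8 genes were at least 1.5-fold higher. Agpat2 and Mttp then also lay below that fold. The share of all listed genes past the fold alone under these scalings is not given here. By both criteria the 3 called genes stayed called under each of them, against 13.3% to 14.9% of all listed genes called higher. The median log2 ratio of the 8 genes was 1.29, beside 0.25 over all listed genes, and under TMM scaling these medians were 1.04 and 0.00. Since the genes were chosen with earlier results of these data known, these counts and medians are a description and not a test. In bulk liver, fewer cells of a type and less RNA per cell cannot be told apart.

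**Figure D1:**
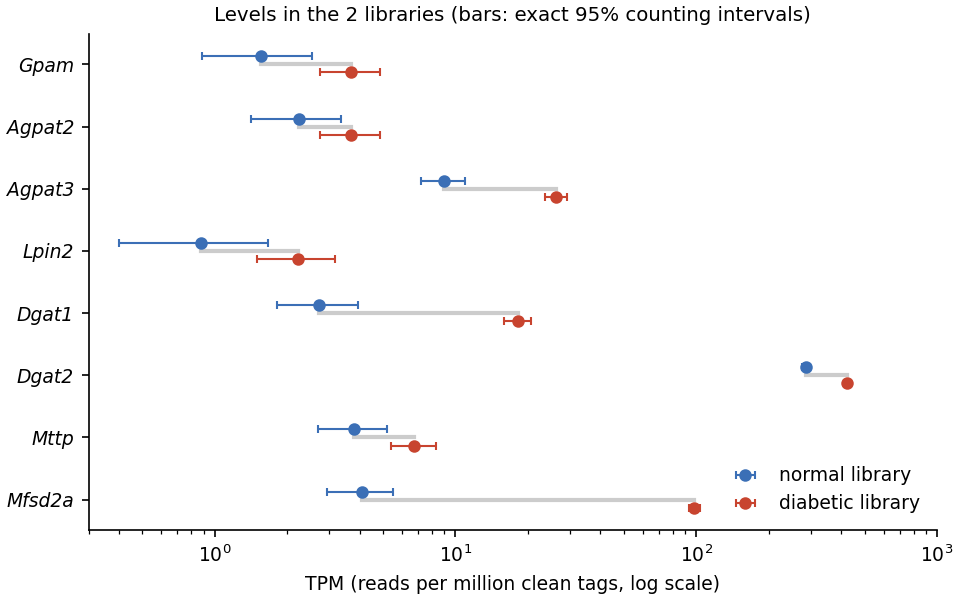
Level of each of the 8 listed genes in TPM (log axis) in the normal library (blue) and the diabetic library (red), 1 library each, with exact 95% counting intervals. The diabetic value is the higher one for every gene, with the widest gap for Mfsd2a at 4.09 and 98.09 TPM.

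The first acylation is carried out in mitochondria by the enzyme of Gpam (Entrez 14732), which is widely regarded as a controlling step of the pathway. Gpam had 16 reads in the normal library, or 1.56 TPM (95% exact interval, 0.89 to 2.53), and 50 reads in the diabetic library, or 3.70 TPM (2.75 to 4.88). The diabetic value was 2.37-fold the normal one, with a log2 ratio of 1.25 (95% interval, 0.41 to 2.16) and an exact test FDR of 0.0041, so the gene was not called. Its value rests on few reads, and the interval spans ratios from 1.33 to 4.47.

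The second acylation, which gives phosphatidic acid, is carried out by the enzymes of Agpat2 and Agpat3. Loss of AGPAT2 is known to cause a congenital lack of adipose tissue, and AGPAT3 also acylates other lysophospholipids. Agpat3 (Entrez 28169) had 92 reads in the normal and 353 reads in the diabetic library, which are 8.95 TPM (95% exact interval, 7.22 to 11) and 26.13 TPM (23.5 to 29). It rose 2.92-fold, a log2 ratio of 1.55 (95% interval, 1.21 to 1.89, exact test FDR 1.6e-22). Agpat2 (Entrez 67512) had 23 and 50 reads in the normal and diabetic libraries, or 2.24 and 3.70 TPM. With a log2 ratio of 0.72 (95% interval, -0.01 to 1.51, exact test FDR 0.076) it was not called.

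Lipin 2, encoded by Lpin2 (Entrez 64898), is a phosphatidic acid phosphatase that is prominent in liver. Lpin2 had the fewest reads of the 8 genes, 9 in the normal and 30 in the diabetic library, or 0.88 TPM (95% exact interval, 0.4 to 1.66) and 2.22 TPM (1.5 to 3.17). Its 2.52-fold higher value (log2 ratio 1.33, 95% interval 0.23 to 2.60) had an exact test FDR of 0.028 and did not pass the criteria.

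The last acylation is shared by DGAT1 and DGAT2, enzymes of unrelated protein families that catalyse the same reaction. For Dgat1 (Entrez 13350), the normal library gave 28 reads or 2.72 TPM (95% exact interval, 1.81 to 3.94), and the diabetic library gave 245 reads or 18.14 TPM (15.9 to 20.6), with no overlap of the intervals. The rise was 6.67-fold (95% interval, 4.49 to 10.2, exact test FDR 1.2e-31), and 98.3% of listed genes had a log2 ratio no higher than that of Dgat1. Dgat2 (Entrez 67800) was the deepest of the 8 genes, with 2937 reads or 285.74 TPM in the normal library and 5698 reads or 421.82 TPM in the diabetic library. Its fold of 1.48 (95% interval, 1.41 to 1.54) was estimated most tightly of the 8, had an exact test FDR of 7.2e-67, and fell just short of 1.5-fold. The log2 ratio of 0.56 for Dgat2 was 0.26 to 0.31 under the 4 other scalings.

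Mttp (Entrez 17777) encodes the large subunit of the microsomal triglyceride transfer protein. It had 39 reads in the normal and 91 reads in the diabetic library, which are 3.79 TPM (95% exact interval, 2.7 to 5.19) and 6.74 TPM (5.42 to 8.27). The diabetic value was 1.78-fold the normal one, with a log2 ratio of 0.83 (95% interval, 0.27 to 1.41, exact test FDR 0.0057), and the gene was not called.

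Mfsd2a (Entrez 76574) encodes a membrane transporter of lysophosphatidylcholine that carries long-chain polyunsaturated fatty acids, best known from the blood-brain barrier, and its mRNA is known to be induced in fasted liver. It is neither a triglyceride enzyme nor a VLDL factor. Mfsd2a had 42 reads or 4.09 TPM in the normal library (95% exact interval, 2.94 to 5.52) and 1325 reads or 98.09 TPM in the diabetic library (92.9 to 104). It rose 24-fold, a log2 ratio of 4.58 (95% interval, 4.14 to 5.06, exact test FDR 2.1e-259). Its log2 ratio stood at percentile 99.7 of all listed genes and was 4.28 to 4.33 under the 4 other scalings.

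**Figure D2:**
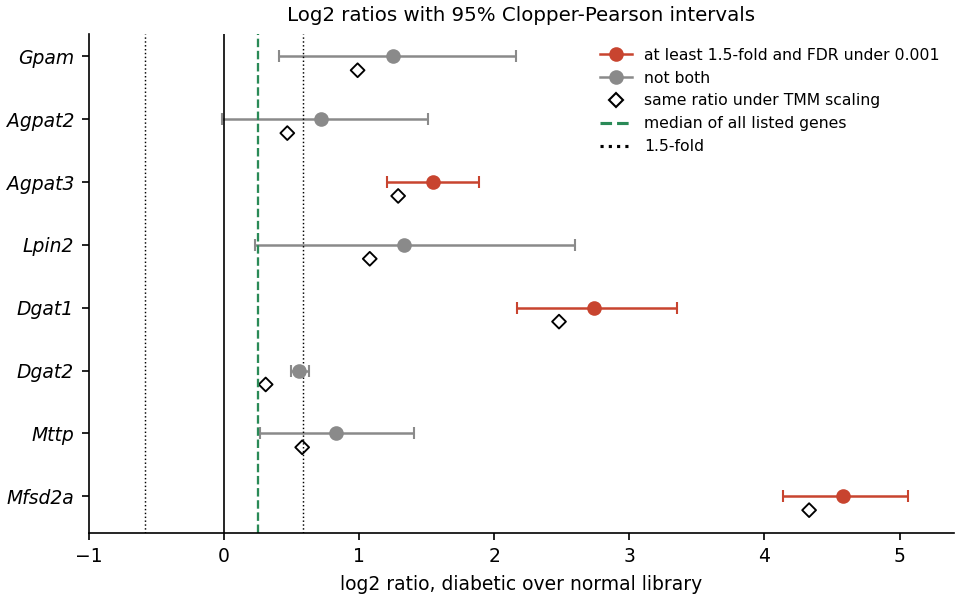
Log2 ratio of diabetic over normal library for each of the 8 genes, in the order of the pathway, with 95% Clopper-Pearson intervals; open diamonds give the ratio under TMM scaling. Mfsd2a, Dgat1 and Agpat3 (red) lie wholly beyond 1.5-fold (dotted lines), and the intervals of the other genes (grey) reach below it.

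**Figure D3:**
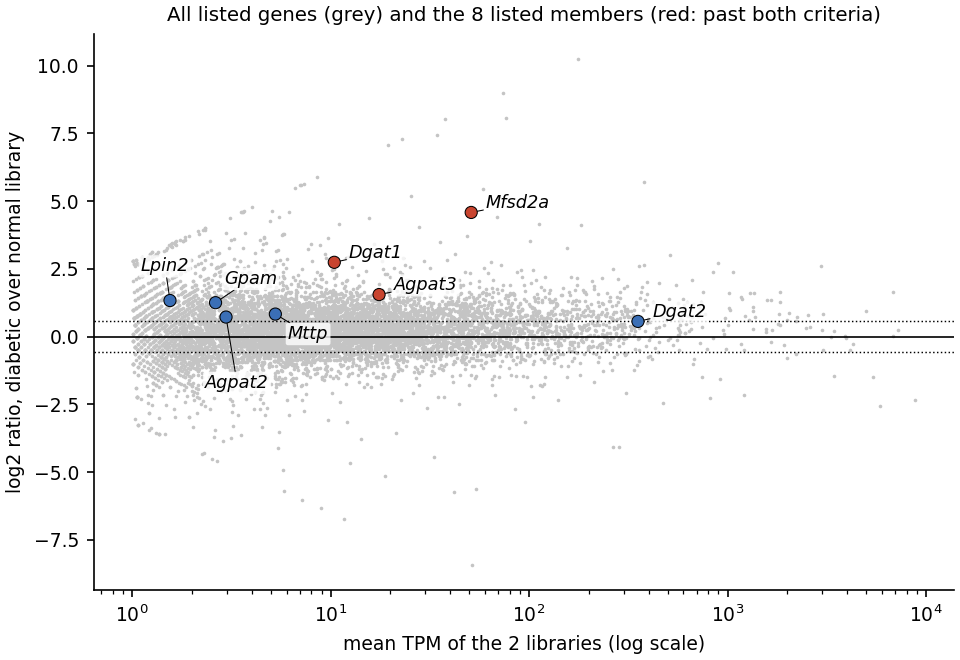
Log2 ratio (diabetic over normal) against the mean TPM of the 2 libraries (log axis) for all 8551 listed genes in grey, with genes at 3 reads or fewer in a library set to 3 reads there. Mfsd2a at 4.58 and Dgat1 at 2.74 stand near the upper edge of genes of their abundance. Of the 5 genes not called (blue), Gpam, Agpat2 and Lpin2 have a mean under 5 TPM.

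The reads of 2 genes within a library have the same scaling, so a change of their ratio does not depend on how the libraries were scaled. For 4 pairs among the 8 genes this change was tested with a two-sided Fisher's exact test, with p-values adjusted over the 4 pairs. Again the test compares the libraries. Reads of different genes are not corrected for length or number of DpnII sites, so their levels were not compared.

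Of the reads of Dgat1 and Dgat2 together, Dgat1 held 0.944% in normal liver (95% Wilson interval, 0.654% to 1.36%) against 4.12% in diabetic liver (3.65% to 4.66%). Dgat1 thus rose 4.51-fold relative to Dgat2, a difference of log2 ratios of 2.17 (95% exact interval, 1.60 to 2.80, adjusted p = 1.3e-18). Dgat1 also rose relative to Mttp, by a difference of log2 ratios of 1.90 (95% exact interval, 1.07 to 2.75, Fisher's exact test, adjusted p = 3.2e-06). For Dgat2 against Mttp the difference was -0.27 with an interval of -0.85 to 0.29 (Fisher's exact test, adjusted p = 0.35). Agpat2 held 20% of the reads of Agpat2 and Agpat3 in normal liver against 12.4% in diabetic liver. The difference of log2 ratios of Agpat2 minus Agpat3 was -0.82 with an interval of -1.64 to 0.04 (Fisher's exact test, adjusted p = 0.064). The last pairs did not pass, and their intervals leave differences of either sign.

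Together the 8 genes had 3186 reads in the normal and 7842 reads in the diabetic library, which sum to 310 and 581 TPM. Dgat2 held 92.2% of these reads in normal liver (95% Wilson interval, 91.2% to 93.1%) against 72.7% in diabetic liver (71.7% to 73.6%). Without Dgat2 the sum was 24.2 TPM in the normal and 159 TPM in the diabetic library. Mfsd2a, which is not a triglyceride enzyme, alone gave 4.09 and 98.09 TPM of these sums. The share of Mfsd2a among the reads of the 8 genes was 1.32% (95% Wilson interval, 0.977% to 1.78%) and 16.9% (16.1% to 17.7%) in the same order. For Mttp the share was 1.22% and 1.16%, with overlapping intervals.

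**Figure D4:**
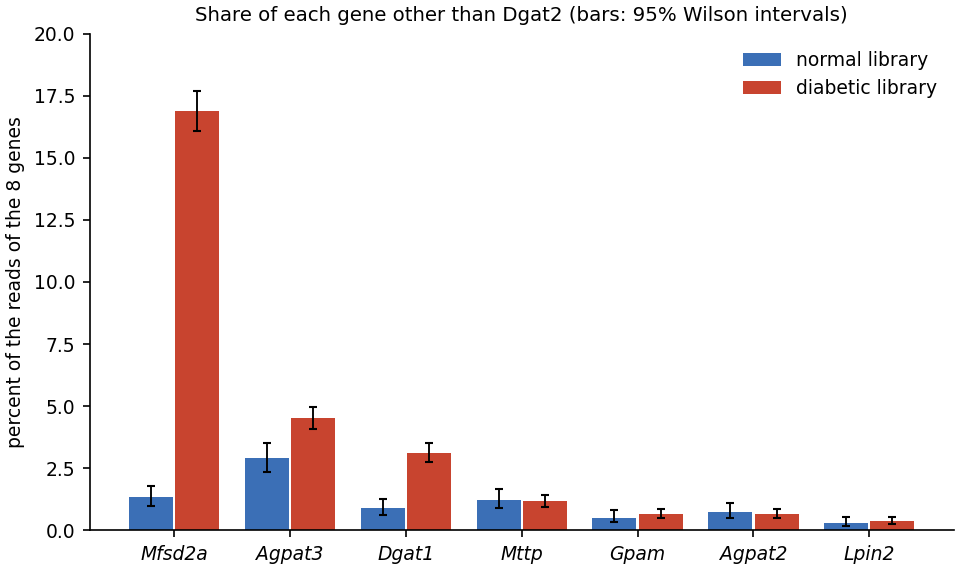
Percent of the reads of the 8 genes that each gene other than Dgat2 held in the normal library (blue) and the diabetic library (red), 1 library each, with 95% Wilson intervals. Mfsd2a goes from 1.32% to 16.9% and Dgat1 from 0.879% to 3.12%, while the intervals of Mttp, Gpam, Agpat2 and Lpin2 overlap between the libraries.

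Glycerol 3-phosphate for the first step comes from glycolysis through the dehydrogenase of Gpd1 or from glycerol that enters through the channel of Aqp9. Of the 7 genes of that supply, 3 were listed, 1 was called higher and 0 lower, with a median log2 ratio of 0.55. For this and the other related lists, the shares over all listed genes are 22.9% called higher and 8.19% called lower. Under TMM scaling 1271 of the 8551 listed genes were called higher and 1147 lower. Gpd1 rose 1.74-fold, from 76.08 to 132.59 TPM (log2 ratio 0.80, 95% interval 0.68 to 0.92), and was not called under any of the 4 other scalings. Aqp9 was at 100.21 and 146.21 TPM, 1.46-fold, and Gpd2, the mitochondrial dehydrogenase, at 4.09 and 5.18 TPM. Both differed by less than 1.5-fold.

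Other glycerolipid acyltransferases and lipins were listed for 8 of 15 genes, of which 3 were called higher and 0 lower (1 and 1 under TMM scaling), with a median log2 ratio of 0.52. Agpat9 and Agpat6, the table's symbols for the GPAT3 and GPAT4 genes, encode the glycerol 3-phosphate acyltransferases of the endoplasmic reticulum. Agpat9 rose 11.1-fold, with 8 and 117 reads or 0.78 and 8.66 TPM (log2 ratio 3.47, 95% interval 2.45 to 4.72). With genes of a mean under 1 TPM left out, Agpat9 is listed only through its diabetic value. Agpat6 rose 2.37-fold, with 33 and 103 reads or 3.21 and 7.62 TPM (log2 ratio 1.25, 95% interval 0.67 to 1.86), and was not called under any of the other scalings. Lclat1, a lysocardiolipin acyltransferase, rose from 19.56 to 31.98 TPM and was likewise not called under them. Lpgat1 and Lpcat3, which acylate lysophospholipids, had log2 ratios of 0.17 and 0.33, the former below 0 under each other scaling. Gpat2 and Agpat1 had lower values in the diabetic library, with 37 and 21 reads for Gpat2 and 34 and 28 reads for Agpat1, and neither was called. Gpat2 was called lower under each of the 4 other scalings.

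Diacylglycerol and phosphatidic acid are also the source of phospholipids, and here genes moved in both directions. Of 19 genes of the phospholipid branch 13 were listed, with 4 called higher, 2 called lower and a median log2 ratio of 0.06. Under TMM scaling, which trims extreme genes, 3 were called higher and 4 lower, beside 1271 and 1147 of the 8551 listed genes. Chpt1, whose enzyme joins choline phosphate to diacylglycerol, rose 3.79-fold from 30.94 to 117.26 TPM (log2 ratio 1.92, 95% interval 1.75 to 2.10). Chka, which encodes the choline kinase at the start of the same route, fell from 57.30 to 12.21 TPM, 4.69-fold (log2 ratio -2.23, 95% interval -2.49 to -1.98). Etnk2, an ethanolamine kinase, rose from 35.71 to 78.84 TPM, and Crls1, the cardiolipin synthase gene, from 26.56 to 59.22 TPM. Pcyt2, of the ethanolamine route, rose 1.54-fold from 205.87 to 318.03 TPM and fell below 1.5-fold under the other scalings. Cdipt, the phosphatidylinositol synthase gene, fell from 21.21 to 13.10 TPM. Pemt, Etnk1, Chkb and D5Wsu178e, the table's symbol for Selenoi, were not called, with log2 ratios of 0.06, 0.06, -0.07 and -0.45; under each other scaling the first and second were below 0 and D5Wsu178e was called lower.

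Partners of Mttp in VLDL assembly and secretion were listed for 27 of 30 genes. Of these 11 were called higher and 2 lower (9 and 3 under TMM scaling), and the median log2 ratio of 0.27 was close to the 0.25 of all listed genes. Over all listed genes 22.9% were called higher and 8.19% lower. Under TMM scaling 14.9% were called higher, and 1147 of the 8551 were called lower. Apob, the structural protein of VLDL onto which the transfer protein loads lipid, fell from 8265 reads or 804.10 TPM to 1990 reads or 147.32 TPM, 5.46-fold (log2 ratio -2.45, 95% interval -2.52 to -2.38). P4hb, which encodes protein disulfide isomerase, the smaller subunit of the transfer protein, rose from 277.96 to 735.55 TPM (log2 ratio 1.40, 95% interval 1.34 to 1.46). Thus the genes of the 2 subunits both had higher values in the diabetic library, although Mttp was not called. The gene of the acceptor protein was lower there. Cideb, named after its values were seen as the other gene called lower, encodes a droplet protein that takes part in VLDL lipidation and was at 334.97 and 200.03 TPM.

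The relatives of Cideb stood at the other end of this list. Cidea and Cidec encode lipid droplet fusion proteins that are abundant in adipocytes. Cidea had 0 reads in the normal library and 95 reads or 7.03 TPM in the diabetic one. Set against a floor of 3 reads (0.292 TPM) this is at least 24.1-fold higher, while the 95% exact interval of the ratio, which also counts the error of both libraries, starts at 19.2-fold. Cidec had 2 and 176 reads, or 0.19 and 13.03 TPM, a ratio of 68.6 whose log2 of 6.10 has a 95% interval from 4.19 to 9.12. With Cidec set to the same floor of 3 reads in the normal library, the log2 ratio was 5.48. Since genes with a mean under 1 TPM are left out, Cidea and Cidec are listed only through their diabetic values. Tm6sf2, a membrane protein needed for normal VLDL lipidation, rose from 3.31 to 10.29 TPM (log2 ratio 1.64, 95% interval 1.09 to 2.22). Ces3, the older symbol of the lipase gene Ces1d, rose from 408.81 to 932.25 TPM. Sec24c and Sec23a, of the coat of vesicles that leave the endoplasmic reticulum, rose with log2 ratios of 1.34 and 1.28, and Sec23a was not called under the other scalings. Aadac, Hspa5, Calr and Acsl1 were within 1.5-fold, with log2 ratios of 0.21, 0.13, 0.15 and 0.23 that were below 0 under each of the 4 other scalings.

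Among 29 genes of transcriptional regulators that act on these pathways, 22 were listed, of which 5 were called higher and 5 lower, with a median log2 ratio of 0.22. Under TMM scaling 2 were called higher and 6 lower, beside 1271 and 1147 of the 8551 listed genes. Pparg, the nuclear receptor that drives fat storage genes in adipocytes, rose 6.82-fold from 78 reads or 7.59 TPM to 699 reads or 51.75 TPM (log2 ratio 2.77, 95% interval 2.43 to 3.13). Ppara, the nuclear receptor of fatty acid oxidation, rose from 36.58 to 82.10 TPM, and Ppard fell from 13.52 to 5.55 TPM. Hnf4a and Xbp1, factors that hepatocytes need for lipoprotein secretion, fell from 96.80 to 46.19 TPM and from 214.14 to 101.12 TPM. Usf2 fell from 65.96 to 38.35 TPM. Nr1h2, a liver X receptor gene, rose 1.72-fold and was not called under the other scalings. Insig1, Cebpa, Insig2 and Mlxipl were within 1.5-fold. Srebf1 and Nr1h3, the sterol regulatory and liver X receptor genes named after their values were seen, were not called, with log2 ratios of 0.54 and -0.04.

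**Figure D5:**
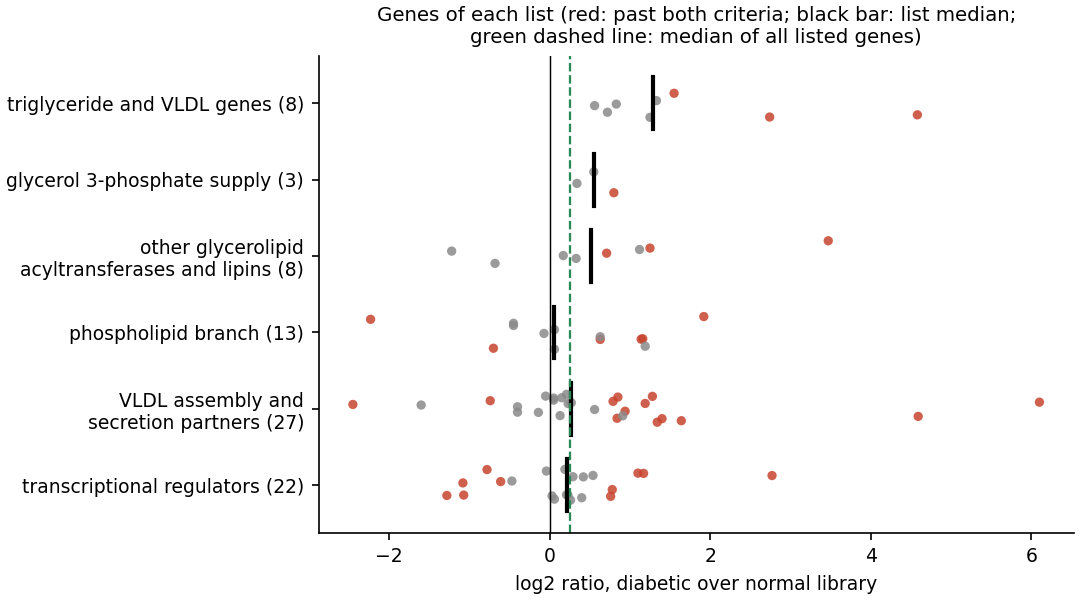
Log2 ratio (diabetic over normal) of each listed gene in the triglyceride and VLDL genes and in 5 related lists, with the number of genes in brackets, genes past both criteria in red, list medians as black bars and the median of all listed genes as a green dashed line. The 8 genes drawn as triglyceride and VLDL genes, which include Mfsd2a, lie to the right of 0 with a median of 1.29. Among them Lpin2 could be listed only with a higher diabetic value. The phospholipid branch, VLDL partners and regulators spread to both sides. Cidea is drawn at its bound.

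Several of these genes are also expressed in fat, so markers of other cells were read beside them. Of 7 adipocyte markers 3 were listed, and their sum was 17.8 TPM in the normal and 48.2 TPM in the diabetic library. Fabp4 rose from 8.56 to 26.58 TPM and Cfd from 0.49 to 11.84 TPM, while Lipe was at 8.76 and 9.77 TPM. With genes of a mean under 1 TPM left out, Cfd is listed only through its diabetic value. Adipoq, Plin1, Lep and Retn, which define adipocytes more strictly, were not analysed here. Of 5 enterocyte markers 2 were listed, Fabp2 at 265.89 and 282.86 TPM and Apoa4, which liver also makes, at 105.37 and 652.94 TPM. The sums for Kupffer cell markers were 318 and 189 TPM (7 of 9 listed), for endothelial markers 115 and 103 TPM (7 of 7), for stellate cell markers 109 and 152 TPM (6 of 7) and for cholangiocyte markers 61.5 and 107 TPM (3 of 5), each in the order normal and diabetic. Single genes carried some of these sums. In the Kupffer cell list C1qa, a complement gene of macrophages, fell from 176.48 to 50.71 TPM. C1qc fell from 11.09 to 3.18 TPM and Csf1r from 21.70 to 10.14 TPM. C1qb rose from 38.14 to 57.82 TPM (within 1.5-fold under the other scalings), and Cd5l was at 64.70 and 62.92 TPM. Of the 7 listed Kupffer cell markers 3 were called lower and 1 higher, beside 8.19% and 22.9% of all listed genes. In the cholangiocyte list Spp1 rose from 57.21 to 103.12 TPM, and Epcam was at 3.21 and 3.04 TPM. The part of these cells in the differences of Dgat1, Agpat3, Mfsd2a, Cidea, Cidec and Pparg was not tested.

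RefSeq promoter windows (GRCm38.p6, 250 bases before to 50 after a start) were given for 6 of the 8 listed genes, 9 windows in all. The E-box letters CACGTG were found on either strand in a window of Lpin2 and in 7.15% of all 32851 windows, and the forkhead letters GTAAACA in a window of Lpin2 and in 3.65% of all. No window of the other 5 genes held these letters, nor did any of the 9 windows hold TCACNCCAC (sterol regulatory element, 1.24% of all windows), TGACGTCA (cAMP response element, 1.79%) or TATAAA (13.6%). The direct repeat of the nuclear receptors with a spacer of 1 base (0.0396% of all windows, 0.381% in a looser form) was not found in them either. A match or its lack describes these letters in these windows only.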

How the data were processed

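Digital gene expression tags of 1 normal and 1 diabetic liver library were analysed. Per the methods and labels, the authors isolated poly(A) RNA, cut the cDNA with DpnII, compared clean tags with RefSeq and gave each gene in what they call TPM. These deposited values are RPM values, rounded to 2 decimals, with 0.01 in place of 0 and genes with a mean under 1 left out. The build named in the submitters' processing notes is mm9, and the aligner is not given in the sources used here. No other column of sample values was present.

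Whole reads were recovered from the steps of the values: 8513 of 8513 values above 0.01 in the normal and 8536 of 8537 in the diabetic library were whole within 0.01 TPM. The table was thus tested as reads with an exact binomial test and Benjamini-Hochberg adjustment across all 8551 genes; fold changes use the deposited values. Genes at 3 reads or fewer in a library were set to 3 reads for calls. The alternatives were 4 scalings between libraries (sum of the listed genes, trimmed mean of M values or TMM, median ratio, upper quartile), a fold of 2, the fold alone, the Audic-Claverie test, a minimum mean of 5 TPM and pseudocounts of 0.1 and 1 TPM. The computation was tested on simulated data. From each related list, genes named are those called (at most the 8 with the largest change) and at most 4 of the most abundant not called. A gene that the rule names is not reported here. The genes and lists were chosen with earlier results of these data known. List symbols were matched by symbol or through the RefSeq gene table of GRCm38.p6. Tests ran in scipy 1.17.1 under Python 3.11.15 (pandas 2.3.3, numpy 2.4.6), and plots were drawn with matplotlib 3.10.9.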

Additional observations from a re-analysis of the deposited data

How the results depend on the processing

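Agpat3, Dgat1 and Mfsd2a were the called genes of the 8 under each of the 4 scalings, a fold of 2, the Audic-Claverie test and a mean of at least 5 TPM, which 5 of the 8 reach. With the fold of 1.5 alone the count was 7. Over all listed genes 2655 were called, 1623 at a fold of 2 and 4251 by the fold alone, and over the 73 listed genes of the 5 related lists 33 were called and 20 at a fold of 2. Of the related genes named by rule, 7 called higher were not called under any of the 4 scalings, 2 more were called lower, and 9 or 10 uncalled genes changed sign. With 1 TPM added to each gene, the differences of log2 ratios kept their sign in all 4 pairs. No paired analysis was possible because there is 1 library per group, and no library could be left out. Counting intervals of the log2 ratio are widest for Lpin2, Gpam and Agpat2, with 9 to 23 reads in the normal library.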
